A study of Mus musculus with 10 samples.

Results

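Iron handling and iron-binding defence were followed through 9 genes in the terminal ileum of stressed and control mice: Cybrd1, Slc11a2, Slc40a1, Heph, Tfrc, Fth1, Hmox1, Ltf and Lcn2. They were taken as the probe sets whose single platform gene symbol was one of these 9 names, and for each gene the brightest of its probe sets, averaged over the 10 arrays, was used. The 9 genes are among 13666 genes tested, and all 9 passed the filter on low values. The stressed group held 5 mice that had gone through subchronic mild social defeat, in which a C57BL/6JJmsSlc male meets an aggressive, older ICR male each afternoon for 10 days, with physical contact of 5 min on the first day, 0.5 min less on each later day and 0.5 min on the last. The control group held 5 unstressed C57BL/6JJmsSlc males. The labels give the C57BL/6JJmsSlc males as 7 weeks of age, housed singly and fed AIN-93G, a purified diet. Tissue of the lower small intestine was collected after a 3 h fast, and each array reads epithelium, immune cells and muscle together. No genetic change is named for either group.

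Iron enters the body through the enterocytes of the small intestine, mainly in the duodenum and less in the ileum. At the brush border Cybrd1 reduces ferric iron and Slc11a2 (DMT1) carries ferrous iron into the cell, and at the basolateral side Slc40a1 (ferroportin) carries it out while Heph (hephaestin) oxidises it for binding to transferrin. Ferritin, of which Fth1 encodes the heavy chain, stores iron inside cells, Tfrc takes up transferrin-bound iron from the blood side, and Hmox1 frees iron from heme. Ltf (lactoferrin) binds iron directly and Lcn2 (lipocalin 2) binds the siderophores with which bacteria collect it, so both withhold iron from microbes.

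The array of control mouse 1 stood apart. Across genes it correlated with the other arrays at 0.918 to 0.947, while the other 9 correlated with one another at 0.975 to 0.995. The mean log2 value of 10 absorptive enterocyte markers was between 11.36 and 11.73 in stressed mice, between 11.35 and 11.62 in control mice 2 to 5, and 7.99 in control mouse 1. For 4 tested large intestine markers, among them Car1, that mean was 7.53 in stressed mouse 4, 7.95 in control mouse 1 and between 4.76 and 5.41 in the other 8 mice. Markers of the ileum were present in the other 9 arrays, and the mean of the set differed between the groups. Of its 7 markers, 5 were higher and 2 lower in stressed mice without control mouse 1, where 43.8% of all genes tested were lower. Their median difference was 0.14, and Fgf15 and Cubn carried most of the difference in the mean. The mean of 7 ileum markers was between 10.34 and 10.67 in stressed mice, against 10.05 to 10.31 in control mice 2 to 5 and 7.63 in control mouse 1, so that every stressed mouse was above every control mouse. Without control mouse 1, Cubn, the ileal cobalamin receptor, rose by 0.70 ± 0.11 (SE, limma adjusted p = 0.0245) and Fgf15, the ileal bile acid hormone, by 1.73 ± 0.32 (SE, limma adjusted p = 0.0347). With 10 arrays Cubn differed by 1.35 ± 0.56 (SE) and Fgf15 by 2.41 ± 0.65 (SE), and neither was called. The 2 lower markers without control mouse 1 were Slc51b, at -0.18 ± 0.09 (SE), and Slc10a2, named after its value was seen, at -0.10 ± 0.26 (SE). With 10 arrays both were higher, by 0.24 and 0.25. Fabp6, the ileal bile acid binding protein, was at 13.95 to 14.10 in stressed mice and 13.88 to 13.93 in control mice 2 to 5, against 7.88 in control mouse 1. Differences of the iron genes are therefore given for 10 arrays and for the 9 arrays without control mouse 1. The mean log2 3' to 5' ratio of the Actb and Gapdh controls, a measure of RNA integrity, was 1.13 in stressed mouse 1, at most 0.70 in the other stressed mice, and 0.45 to 0.63 in the 5 control mice.

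Of the 9 genes, ferroportin differed most between the groups. Without control mouse 1, Slc40a1 fell 1.85-fold in stressed mice and passed limma's test over all genes tested. Ltf also passed it, lower in stressed mice, but their mean of 4.11 lay under the filter floor of 4.15, so that Ltf entered the test through its control values and the size of its difference is uncertain. The ferric reductase Cybrd1, the importer Slc11a2, hephaestin, the transferrin receptor, the ferritin heavy chain, heme oxygenase 1 and lipocalin 2 did not pass it. With 10 arrays none of the 9 passed. Called at a limma Benjamini-Hochberg adjusted p under 0.05, members made up 2 of 9 without control mouse 1, where 0.798% of all genes tested were called (0.534% lower, 0.263% higher), and 0 of 9 with 10 arrays, where 0% were called. The 2 include Ltf, with the limit just given, so the count is a description. At an unadjusted p under 0.05, 4 of the 9 were lower and 0 higher without control mouse 1 (6.56% of all genes lower and 11.4% higher, 18% in all), and 2 lower and 0 higher with 10 arrays (3.96% lower and 3.86% higher, 7.82% in all). In sign alone, 7 of the 9 were lower without control mouse 1, as were 43.8% of all genes, and 6 of the 9 with 10 arrays, as were 49.1%. The median difference of the 9 genes, stressed minus control, was -0.15 on the log2 scale without control mouse 1 and -0.18 with 10 arrays, beside 0.03 and 0.00 over all genes tested. In bulk tissue, fewer cells of a type and less RNA per cell cannot be told apart.

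**Figure D1:**
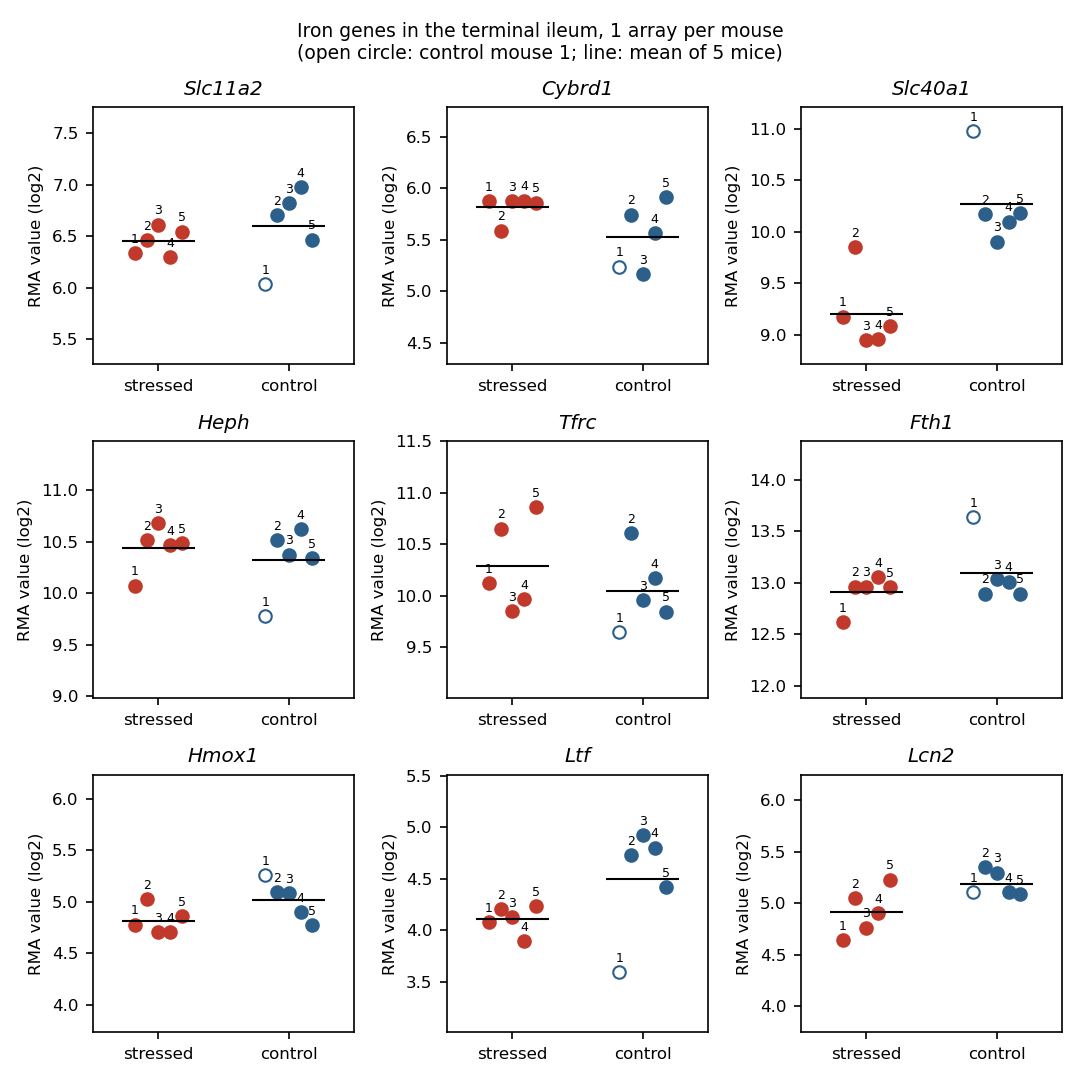
RMA value on the log2 scale of the 9 iron genes in each mouse, stressed on the left and control on the right, with mouse numbers beside the points, an open circle for control mouse 1 and a line at the mean of 5 mice; every panel spans the same number of log2 units. All 5 stressed mice lie below all 5 control mice for Slc40a1, and below control mice 2 to 5 for Ltf, while the groups overlap for the other 7 genes.

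Slc40a1 encodes ferroportin, the one known cellular iron exporter of vertebrates, made in enterocytes and in macrophages that recycle heme iron. The probe set used, 1417061_at, was at 9.18, 9.85, 8.95, 8.96 and 9.08 on the log2 scale in stressed mice 1 to 5, against 10.98, 10.17, 9.90, 10.10 and 10.18 in control mice 1 to 5. The groups did not overlap, and stressed mouse 2 came closest to the controls, just below control mouse 3. Of the 9 genes only Slc40a1 showed no overlap with 10 arrays, where 2.28% of all genes tested did (1.12% with the stressed mice below). It averaged 9.20 ± 0.37 (SD, n = 5) in stressed mice, against 10.27 ± 0.41 (SD, n = 5) in all control mice and 10.09 ± 0.13 (SD, n = 4) in control mice 2 to 5. Without control mouse 1, Slc40a1 fell by 0.89 ± 0.17 (SE) and ranked 72 of 13666 genes by p, with a limma adjusted p of 0.0365. With 10 arrays it differed by -1.07 ± 0.22 (SE), a 2.09-fold lower level, and ranked 18 of 13666 genes by p, with a limma adjusted p of 0.301.

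The other Slc40a1 probe set, 1448566_at, gave a difference of the same size. It was at 7.00, 8.16, 7.24, 7.00 and 7.45 in stressed mice 1 to 5, against 9.04, 8.26, 8.23, 8.43 and 8.30 in control mice 1 to 5. Again no stressed mouse reached a control mouse, stressed mouse 2 was the highest of its group and control mouse 1 the highest of all. The difference was -0.93 ± 0.20 (SE) without control mouse 1 and -1.08 ± 0.23 (SE) with 10 arrays. When all 27022 probe sets above the filter were tested one by one, in place of 1 per gene, neither Slc40a1 probe set passed without control mouse 1, at limma adjusted p of 0.0570 for 1417061_at and 0.0850 for 1448566_at.

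**Figure D2:**
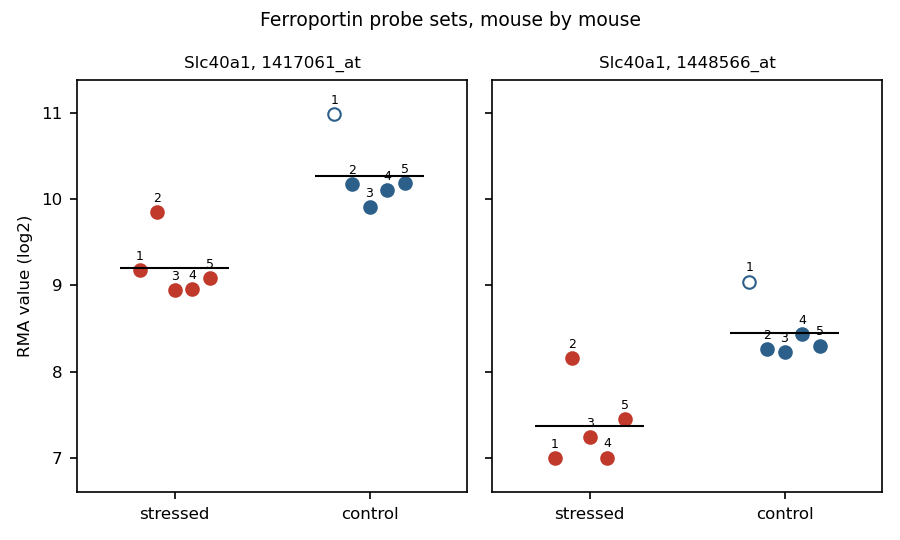
RMA value on the log2 scale of the 2 ferroportin probe sets in each mouse, stressed on the left and control on the right, with mouse numbers beside the points, an open circle for control mouse 1 and a line at the mean of 5 mice. In both panels the 5 stressed mice lie below the 5 control mice, with stressed mouse 2, at 9.85 and 8.16, nearest to them.

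The size of the Slc40a1 difference varied little with the mice used, and its call did. Leaving out 1 further mouse besides control mouse 1 gave differences from -0.82 to -1.05, and Slc40a1 was called in 1 of these 9 fits, that without stressed mouse 2 (limma adjusted p = 0.00460). Its limma adjusted p was 0.0829, 0.0740, 0.0732 and 0.0640 without control mouse 2, 3, 4 or 5, and 0.0741, 0.0856, 0.102 and 0.0820 without stressed mouse 1, 3, 4 or 5.

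Markers of the cells that make ferroportin were set beside it. The mean of 10 tested macrophage markers was between 7.73 and 8.03 in stressed mice, against 7.87 to 8.22 in control mice 2 to 5 and 8.00 in control mouse 1, and 0 of the 10 were called in either comparison. Of these 10, 8 were lower in stressed mice with and without control mouse 1, as were 49.1% and 43.8% of all genes tested. Their median difference was -0.17 with control mouse 1 and -0.18 without it. In the 9 arrays the lysozyme gene Lyz2 gave -0.06 ± 0.08 (SE), the growth factor receptor Csf1r -0.17 ± 0.10 (SE) and the complement gene C1qa -0.20 ± 0.11 (SE), and with 10 arrays they gave 0.35 ± 0.35, -0.17 ± 0.10 and -0.17 ± 0.10 (SE). Lyz2 was at 10.06 in control mouse 1, against 11.91 to 12.20 in the other mice. The Paneth cell gene Lyz1 was also low there, at 11.55 against at least 14.27. Csf1r (9.91) and C1qa (8.90) were within the range of the other mice. Whether Lyz2 reads macrophages here was not tested. The 2 higher markers without control mouse 1 were Cd163, the receptor for hemoglobin bound to haptoglobin, at 0.25 ± 0.10 (SE), and Mrc1, named after its value was seen, at 0.04 ± 0.10 (SE). With 10 arrays Cd163 gave 0.07 ± 0.18 (SE). Timd4 and Spic, markers of resident and iron-recycling macrophages, lay below the filter floor of 4.15. Of 10 absorptive enterocyte markers, 0 were called. Without control mouse 1, 7 of them were higher and 3 lower, where 43.8% of all genes tested were lower. Of the 7 ileum markers, 5 were higher without control mouse 1, 2 of them called (Cubn and Fgf15). With 10 arrays 7 were higher, but there the controls include control mouse 1, whose mean of the set was 7.63, so that count says little about stress. Leaving control mouse 1 aside, the mean of this set was thus higher in the stressed mice, in which Slc40a1 and Ltf were lower. Most of that difference in the mean came from Fgf15 (1.73) and Cubn (0.70), while the median difference of the 7 markers was 0.14. The part of these cell types and of the position along the gut in the Slc40a1 and Ltf differences was not tested.

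**Figure D3:**
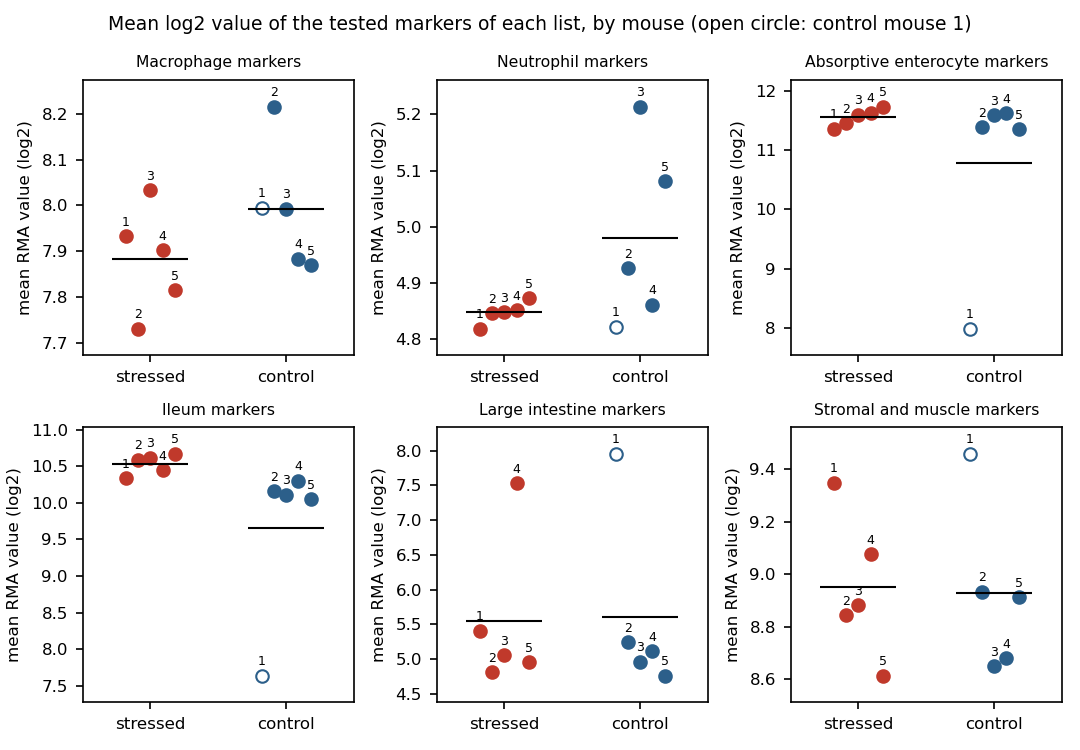
Mean log2 value of the tested markers of 6 cell type or region lists in each mouse, stressed on the left and control on the right, with mouse numbers beside the points, an open circle for control mouse 1 and a line at the mean of 5 mice. For ileum markers every stressed mouse (10.34 to 10.67) lies above every control mouse (at most 10.31), while the groups overlap in the other 5 panels; control mouse 1 stands far below the rest for absorptive enterocyte (7.99) and ileum markers (7.63). Without control mouse 1, Fgf15 and Cubn carry most of the ileum marker difference.

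Heph, the ferroxidase that works beside ferroportin, did not differ beyond its error. It was at 10.07, 10.51, 10.68, 10.47 and 10.48 in stressed mice 1 to 5, against 9.78, 10.52, 10.37, 10.62 and 10.34 in control mice 1 to 5. The groups overlapped, with stressed mouse 1 and control mouse 1 the lowest of their groups. Its difference was -0.02 without control mouse 1, with a 95% confidence interval of -0.27 to 0.23, and 0.12 with 10 arrays, so that its sign turned on control mouse 1. The limma adjusted p was 0.949 and 0.890.

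The import side gave small differences that depended on the probe set. Slc11a2, the proton-coupled importer, was at 6.34, 6.46, 6.61, 6.29 and 6.54 in stressed mice 1 to 5, against 6.03, 6.70, 6.82, 6.98 and 6.47 in control mice 1 to 5 (probe set 1452078_a_at). The stressed mice lay between control mouse 1 and the highest controls. Its difference was -0.29 ± 0.11 (SE) without control mouse 1 (limma adjusted p = 0.194) and -0.15 ± 0.16 (SE) with 10 arrays (limma adjusted p = 0.847). Of its other 3 probe sets, 1426441_at gave -0.24 ± 0.12 (SE), 1441709_at gave -0.12 ± 0.15 (SE) and 1417584_at gave 0.13 ± 0.10 (SE) without control mouse 1. With 10 arrays these were -0.29 ± 0.12, -0.14 ± 0.14 and 0.18 ± 0.10 (SE). Slc11a2 transcripts are known to differ at their 3' ends, with and without an iron-responsive element, and which form each probe set reads is not given in the sources used here.

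Cybrd1, the duodenal ferric reductase, gave differences of opposite sign with its 2 probe sets. Its probe set 1460604_at was at 5.88, 5.59, 5.88, 5.88 and 5.86 in stressed mice 1 to 5, against 5.24, 5.74, 5.16, 5.57 and 5.92 in control mice 1 to 5. The stressed mice were close together apart from mouse 2, and the controls spread around and below them. The difference was 0.22 ± 0.14 (SE) without control mouse 1 (limma adjusted p = 0.415) and 0.29 ± 0.14 (SE) with 10 arrays (limma adjusted p = 0.667). The second probe set, 1425040_at, gave -0.12 ± 0.09 (SE) and -0.04 ± 0.11 (SE).

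Tfrc, the transferrin receptor, whose mRNA is stabilised when cells lack iron, varied among mice of both groups. Its probe set 1452661_at was at 10.12, 10.65, 9.85, 9.96 and 10.86 in stressed mice 1 to 5, against 9.65, 10.61, 9.96, 10.17 and 9.85 in control mice 1 to 5. Stressed mice 2 and 5 and control mouse 2 were high, and the groups overlapped over most of their ranges. The difference was 0.14 without control mouse 1, with a 95% confidence interval of -0.33 to 0.62, and 0.24 with 10 arrays, with limma adjusted p of 0.763 and 0.823. The remaining probe sets, 1422966_a_at and 1422967_a_at, gave 0.02 ± 0.15 (SE) and -0.02 ± 0.19 (SE) without control mouse 1, and 0.06 ± 0.14 (SE) and 0.11 ± 0.21 (SE) with 10 arrays. A further 3 probe sets of Tfrc are manufacturer's controls and were left out of the tests, with means between 3.25 and 4.70 in stressed mice, against 3.31 and 4.62 in control mice 2 to 5.

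Fth1, the ferritin heavy chain that oxidises and stores iron, did not differ beyond its error without control mouse 1. Its probe set 1427021_s_at was at 12.62, 12.96, 12.96, 13.06 and 12.96 in stressed mice 1 to 5, against 13.64, 12.90, 13.04, 13.01 and 12.89 in control mice 1 to 5. Control mouse 1 was well above all other mice and stressed mouse 1 was the lowest. The difference without control mouse 1 was -0.05, with a 95% confidence interval of -0.25 to 0.15, and with 10 arrays it was -0.18, with limma adjusted p of 0.810 and 0.803. The second probe set, 1448771_a_at, gave 0.06 ± 0.07 (SE) without control mouse 1 and -0.08 ± 0.14 (SE) with 10 arrays. Transcript levels do not show ferritin protein, whose synthesis is set by iron regulatory proteins at translation.

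Hmox1, the inducible heme oxygenase, did not pass the test. It was at 4.78, 5.02, 4.70, 4.70 and 4.86 in stressed mice 1 to 5, against 5.26, 5.09, 5.08, 4.90 and 4.77 in control mice 1 to 5. Control mice 1 to 3 were above all stressed mice, and control mice 4 and 5 were among them. The difference was -0.15 ± 0.10 (SE) without control mouse 1 (limma adjusted p = 0.437) and -0.21 ± 0.10 (SE) with 10 arrays (limma adjusted p = 0.683).

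**Figure D4:**
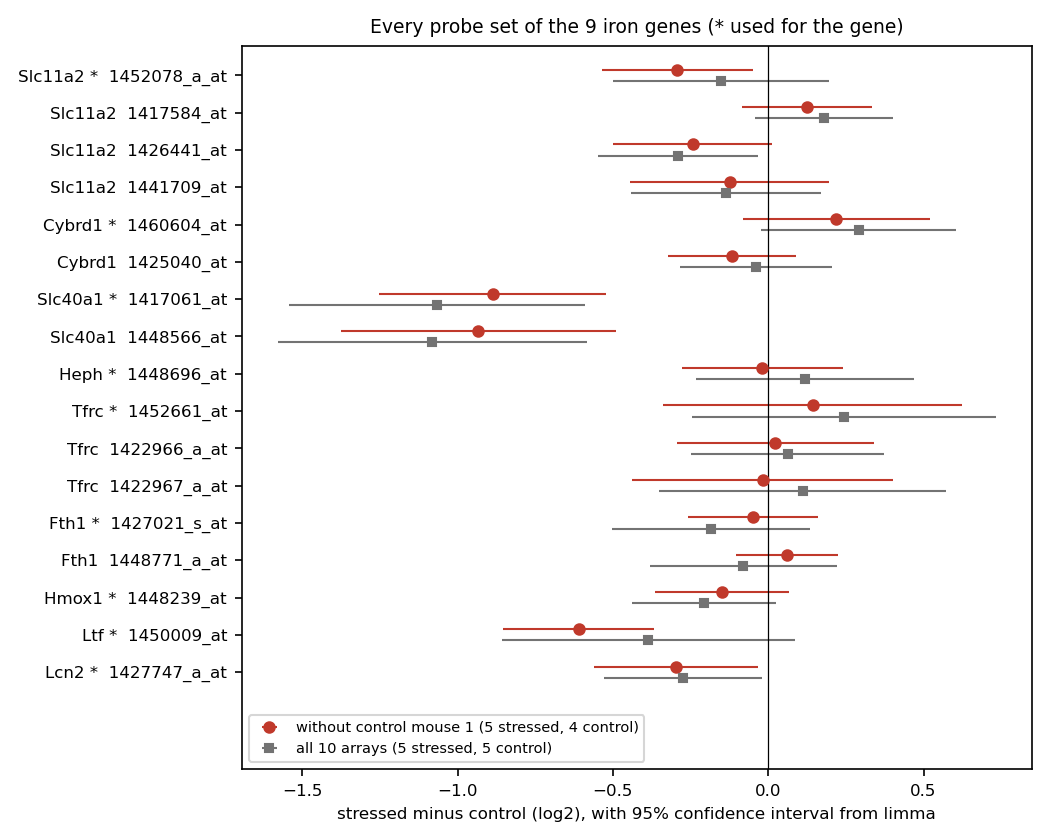
Difference of stressed minus control mice on the log2 scale for each of the 17 probe sets of the 9 genes other than manufacturer's controls, with 95% confidence intervals from limma over all 27022 probe sets tested; red circles are the fit without control mouse 1 and grey squares that with 10 arrays. The intervals of both Slc40a1 probe sets and, without control mouse 1, of Ltf lie farthest below 0, and the probe sets of Slc11a2 and of Cybrd1 fall on both sides of 0.

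Of the iron-binding defence proteins, Ltf fell without control mouse 1. Ltf, lactoferrin, is a product of glandular epithelia and of neutrophil granules. It was at 4.08, 4.20, 4.13, 3.89 and 4.23 in stressed mice 1 to 5, against 3.59, 4.73, 4.92, 4.80 and 4.42 in control mice 1 to 5. Control mice 2 to 5 were above every stressed mouse and control mouse 1 was below every one. Without control mouse 1 the groups did not overlap for 2 of the 9 genes, Ltf and Slc40a1, and for 7.24% of all genes tested (2.72% with the stressed mice below). Ltf then fell by 0.61 ± 0.11 (SE, limma adjusted p = 0.0330), and with 10 arrays it differed by -0.39 ± 0.22 (SE, limma adjusted p = 0.734). The mean of the stressed mice, 4.11, lies under the filter floor of 4.15. Ltf thus passed the filter through its control values, 4.72 ± 0.21 (SD, n = 4) without control mouse 1, and the size of its difference is uncertain.

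The call of Ltf also depended on single mice. Leaving out 1 further mouse besides control mouse 1 gave differences from -0.54 to -0.71, and Ltf was called in 2 of these 9 fits, those without control mouse 5 and without stressed mouse 2. Its limma adjusted p was 0.0694, 0.0766 and 0.0688 without control mouse 2, 3 or 4, and 0.0661, 0.0792, 0.0875 and 0.0592 without stressed mouse 1, 3, 4 or 5. When all 27022 probe sets were tested one by one without control mouse 1, Ltf was not called (limma adjusted p = 0.0537).

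Lcn2, whose product captures the bacterial siderophore enterobactin, did not pass the test. It was at 4.64, 5.05, 4.76, 4.90 and 5.23 in stressed mice 1 to 5, against 5.11, 5.35, 5.30, 5.11 and 5.09 in control mice 1 to 5. Only stressed mouse 5 lay within the range of the controls. The difference was -0.30 ± 0.12 (SE) without control mouse 1 (limma adjusted p = 0.221) and -0.28 ± 0.11 (SE) with 10 arrays (limma adjusted p = 0.600).

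Neutrophils also make both proteins, and their markers were near background. Of 13 neutrophil markers on the array, 8 lay below the filter floor, among them S100a8, S100a9, Mpo, Camp and Ctsg. S100a8, a calprotectin subunit that binds zinc and manganese, averaged 2.96 in stressed mice and 3.47 in control mice 2 to 5, and S100a9, its partner, 3.26 and 3.92. The mean of the 5 tested neutrophil markers was between 4.82 and 4.87 in stressed mice, against 4.86 to 5.21 in control mice 2 to 5 and 4.82 in control mouse 1. All 5 were lower in stressed mice without control mouse 1, as were 43.8% of all genes tested, and 0 of them were called. The granule genes Ngp, Mmp9 and Elane gave -0.03 ± 0.08, -0.27 ± 0.11 and -0.30 ± 0.17 (SE), and with 10 arrays -0.04 ± 0.07, -0.21 ± 0.12 and -0.25 ± 0.17 (SE). Their part in the Ltf difference was not tested.

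The sequences upstream of Ltf and Lcn2 are shown because these 2 iron-binding defence genes share a letter match to the motif of C/EBP factors, which are known to drive granule genes. Upstream sequences from RefSeq, build GRCm38.p6, were matched for 5 of the 9 genes (Cybrd1, Fth1, Lcn2, Ltf and Tfrc), and for Slc11a2, Slc40a1, Heph and Hmox1 none was used. The 250 bases before the start of each gene are printed 5′ to 3′ on the gene's strand, with the C/EBP motif TTGCNNAA, on either strand, in capitals. The Ltf stretch is chr9:111019042-111019291 on the plus strand and the Lcn2 stretch is chr2:32387740-32387989 on the minus strand.
Ltf: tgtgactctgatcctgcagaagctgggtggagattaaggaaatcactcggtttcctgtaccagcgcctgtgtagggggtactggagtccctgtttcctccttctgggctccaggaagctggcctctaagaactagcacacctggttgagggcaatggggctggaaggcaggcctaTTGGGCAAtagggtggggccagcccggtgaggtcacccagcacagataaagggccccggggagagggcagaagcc
Lcn2: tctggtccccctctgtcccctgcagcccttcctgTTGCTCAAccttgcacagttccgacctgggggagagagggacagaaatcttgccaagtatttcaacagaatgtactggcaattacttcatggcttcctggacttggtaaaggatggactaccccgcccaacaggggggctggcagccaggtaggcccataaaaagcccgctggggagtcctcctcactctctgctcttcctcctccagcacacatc
The match begins 75 bases before the start in Ltf, on the opposite strand, and 216 bases before it in Lcn2. In windows of 300 bases, from 250 before to 50 after a start, the motif was found in 10.8% of 32851 promoters and in 3 of the 7 windows of the 5 genes (Ltf, Lcn2 and 1 of Fth1). The antioxidant motif of NRF2, TGACNNNGC, was found in 12.4% of all windows and 0 of the 7, and the hypoxia motif ACGTG in 19.6% and 2 of the 7, both of Tfrc, whose windows overlap and share that match. These matches are descriptions and not binding sites.

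Other genes of iron and heme handling gave few calls. In the 9 arrays without control mouse 1, 1 of 15 tested genes of iron uptake, export and reduction was called, Slc25a37 (mitoferrin 1), which carries iron into mitochondria. Slc25a37 was at 8.50 to 8.84 in stressed mice, against 8.02 to 8.31 in control mice 2 to 5 and 7.18 in control mouse 1. It rose by 0.49 ± 0.09 (SE, limma adjusted p = 0.0347), and its difference over 10 arrays was 0.69 ± 0.19 (SE). Of 10 heme synthesis genes, 1 was called, Abcb6, a porphyrin transporter, which rose by 0.51 ± 0.10 (SE, limma adjusted p = 0.0459). Abcb6 was at 7.89 to 8.45 in stressed mice, against 7.57 to 7.75 in control mice 2 to 5 and 8.73 in control mouse 1, and its difference over 10 arrays was 0.29 ± 0.21 (SE).

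Among uncalled genes of these 2 lists, differences are given without control mouse 1 and then with 10 arrays. Steap1, of a family of metal reductases, gave -0.55 ± 0.13 (SE, limma adjusted p = 0.0669) and -0.43 ± 0.16 (SE). Slc39a8, a zinc, manganese and iron importer, gave -0.44 ± 0.13 (SE) and -0.76 ± 0.29 (SE), with control mouse 1 at 8.93, above all other mice. Mcoln1, a lysosomal iron channel, gave 0.39 ± 0.13 (SE) and 0.33 ± 0.13 (SE). Of the heme synthesis enzymes, Urod gave 0.30 ± 0.08 (SE) and 0.24 ± 0.09 (SE), Alas1 gave -0.11 ± 0.09 (SE) and -0.03 ± 0.11 (SE), and Fech gave 0.07 ± 0.06 (SE) and -0.02 ± 0.10 (SE). Alas2, the erythroid form of the first enzyme, was not tested, since its mean over 10 arrays lay just under the filter floor. It averaged 4.46 in stressed mice, above the floor, against 3.87 in control mice 2 to 5 and 3.75 in control mouse 1.

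No gene was called in the lists of iron storage and sensing (9 tested), systemic iron regulation (10 tested), heme uptake and breakdown (14 tested), iron-sulfur cluster assembly (13 tested) or further NRF2 targets (9 tested), with or without control mouse 1. Their median differences were 0.10, 0.06, 0.02, -0.04 and 0.10 without control mouse 1, and 0.01, 0.06, 0.03, -0.12 and 0.02 with 10 arrays. Epas1, which encodes the hypoxia factor HIF-2α, a regulator of duodenal iron genes, was at 9.58 to 9.92 in stressed mice, against 9.15 to 9.57 in control mice 2 to 5 and 10.32 in control mouse 1. Its difference was 0.34 ± 0.10 (SE, limma adjusted p = 0.123) over the 9 arrays and 0.16 ± 0.18 (SE) over all 10. Of the iron regulatory proteins, Ireb2 gave 0.20 ± 0.11 (SE) without control mouse 1 and 0.08 ± 0.15 (SE) with 10 arrays, and Aco1 gave 0.19 ± 0.11 (SE) and 0.27 ± 0.12 (SE).

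In the systemic list, Neo1, a coreceptor of the hepcidin pathway, gave 0.46 ± 0.10 (SE, limma adjusted p = 0.0535) over the 9 arrays and 0.33 ± 0.14 (SE) over all 10. In the same order, the signal transducer Smad4 gave -0.35 ± 0.10 (SE) and -0.26 ± 0.13 (SE), and its upstream ligand Bmp2 gave 0.38 ± 0.18 (SE) and 0.37 ± 0.17 (SE). Hamp, which encodes hepcidin, the hormone that degrades ferroportin, lay below the filter floor by its mean over 10 arrays, as did the heme scavenger Hpx. Of the heme transporters, Abcg2 gave -0.36 ± 0.14 (SE) and -0.06 ± 0.29 (SE), and Flvcr1 gave 0.29 ± 0.17 (SE) and 0.63 ± 0.33 (SE). Of the iron-sulfur genes, Nubp2 gave -0.28 ± 0.10 (SE) and -0.19 ± 0.12 (SE), Isca1 0.11 ± 0.09 (SE) and 0.02 ± 0.11 (SE), and Nfs1 -0.09 ± 0.08 (SE) and -0.12 ± 0.08 (SE). Gsr, glutathione reductase, an NRF2 target, gave -0.79 ± 0.17 (SE, limma adjusted p = 0.0535) and -0.54 ± 0.27 (SE). Nfe2l2, which encodes NRF2, gave 0.30 ± 0.08 (SE) and 0.05 ± 0.23 (SE), and Gclc, of glutathione synthesis, gave 0.27 ± 0.13 (SE) and 0.05 ± 0.23 (SE).

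**Figure D5:**
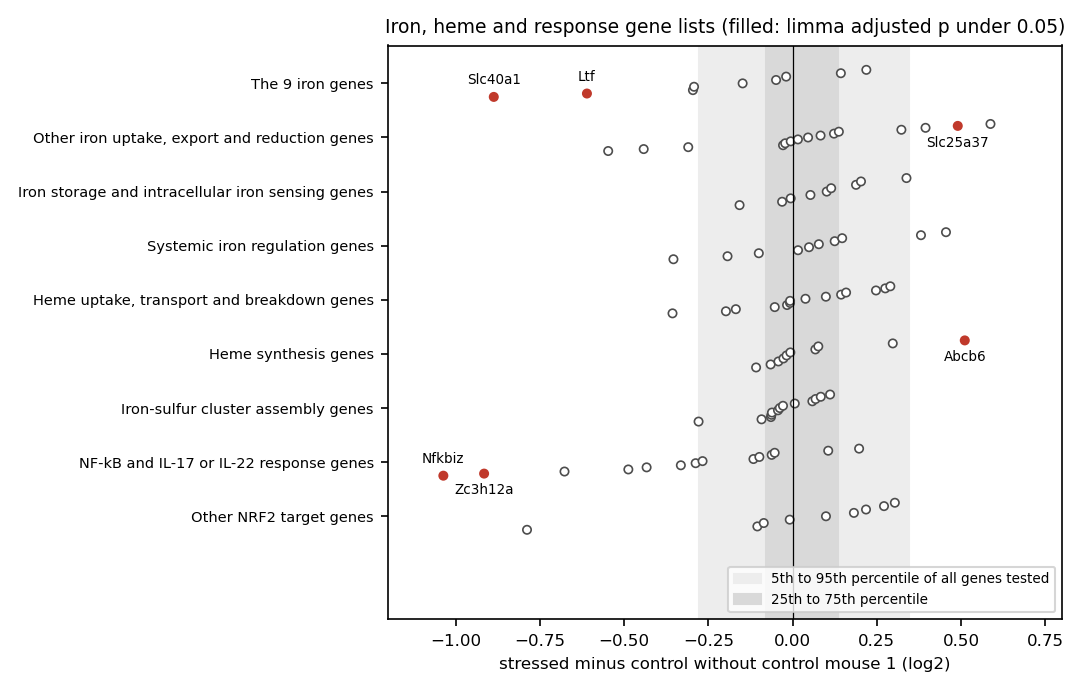
Difference of stressed minus control mice on the log2 scale, without control mouse 1, for each tested gene of the 9 iron genes and 8 related lists; red points passed limma at an adjusted p under 0.05, and the grey bands run from the 5th to the 95th and from the 25th to the 75th percentile of all genes tested. Of the called genes, Slc40a1 (-0.89), Ltf (-0.61), Zc3h12a (-0.92) and Nfkbiz (-1.04) lie below the bands and Slc25a37 (0.49) and Abcb6 (0.51) above them. Uncalled genes also lie outside the bands on both sides, such as Gsr (-0.79) and Scara5 (0.59).

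A list of genes tied to NF-kB, IL-17 or IL-22, signals known to induce Lcn2, was chosen with earlier results of these data known. It held 2 calls among 14 tested without control mouse 1, both lower, where 0.534% of all genes tested were called lower. Nfkbiz, the coactivator IκBζ on which induction of Lcn2 is known to depend, was at 8.07 to 8.41 in stressed mice, against 9.03 to 9.70 in control mice 2 to 5 and 8.00 in control mouse 1. It fell by 1.04 ± 0.13 (SE, limma adjusted p = 0.0184), and its difference over 10 arrays was -0.78 ± 0.25 (SE). Zc3h12a, Regnase-1, an RNase known to cleave Tfrc mRNA, was at 5.76 to 5.98 in stressed mice, against 6.49 to 7.32 in control mice 2 to 5 and 5.51 in control mouse 1. It fell by 0.92 ± 0.15 (SE, limma adjusted p = 0.0294), and its difference over 10 arrays was -0.66 ± 0.26 (SE). Of the 14 genes, 12 were lower without control mouse 1, as were 43.8% of all genes, and 11 with 10 arrays, as were 49.1%. Their median difference was -0.28 and -0.25, beside 0.03 and 0.00 over all genes. The 2 higher without control mouse 1, named after their values were seen, were the receptor genes Il17rc (0.20 ± 0.10, SE) and Il22ra1 (0.11 ± 0.11, SE). Of the uncalled genes, the cytokine Tnf gave -0.43 ± 0.10 (SE, limma adjusted p = 0.0636) over the 9 arrays and -0.33 ± 0.13 (SE) over all 10. In the same order the NF-kB inhibitor Nfkbia gave -0.33 ± 0.09 (SE) and -0.25 ± 0.11 (SE), and Cebpd, a C/EBP factor, -0.49 ± 0.17 (SE) and -0.52 ± 0.16 (SE). Cebpb, a further C/EBP factor of the list, named after its value was seen, gave -0.06 ± 0.09 (SE) and 0.01.

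The genes whose pattern over the 9 arrays without control mouse 1 was most like each iron gene were named by Pearson correlation, as a description. The arrays share their normalization, and the correlation includes the difference between the groups. For Slc40a1 they were Gorasp2 (0.967), Reg3b (0.962), an antibacterial lectin, and Stom (0.957), and over 10 arrays these became 0.692, -0.397 and 0.181. For Ltf they were Bambi-ps1 (0.977), Dmrtb1 (0.972) and Rd3 (0.967), and over 10 arrays 0.901, 0.830 and 0.961. For Lcn2 they were Ly6g2 (0.964), Aimp1 (0.954) and Ceacam2 (0.952), and over 10 arrays 0.427, 0.827 and 0.938. Of the other 6 genes only the closest is given, over 9 and then 10 arrays. It was Rinl for Slc11a2 (0.967 and 0.920), Gng2 for Cybrd1 (0.985 and 0.331) and Galk2 for Heph (0.982 and 0.438). It was Epha2 for Tfrc (0.913 and 0.896), Sdcbp2 for Fth1 (0.937 and 0.982) and Dusp6 for Hmox1 (0.966 and 0.469). Adding control mouse 1 lowered the correlation most for the genes nearest to Cybrd1, Heph and Hmox1 among these 6. The genes were picked as the closest over the 9 arrays, so a lower correlation over 10 arrays can come from that choice.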

How the data were processed

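The log2 values deposited by the authors, 1 array per mouse, come from RMA per the submitters' processing notes. The RMA software version is not given in the sources used here. Base 2 was taken from RMA's usual output and the range of the values, 1.22 to 14.37. RMA forces arrays to a common distribution and understates changes near background, and levels of different probe sets cannot be compared. Of 45101 probe sets, 34945 had 1 platform symbol. The lowest 40 percent by mean were left out (floor 4.15), and 1 probe set per gene, with the highest mean, was kept. The groups were compared by limma 3.58.1 (lmFit, eBayes; R 4.3.3), with p-values adjusted over 13666 genes by Benjamini-Hochberg, and the fit was tested on simulated data. Differences are stressed minus control with limma's standard error (SE). The members, gene lists and naming rule were chosen with earlier results of these data known. The naming rule took all members, called genes of each list, up to 3 more by p in each pathway list, the 3 brightest markers of each cell type list and the 3 most correlated genes per member. Not all are printed: lists of cells that no result turns on are given by their means or left out, and for 6 members 1 correlated gene is given. Scanner output was not used here. The number of arrays limits the precision.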

Additional observations from a re-analysis of the deposited data

Results flagged for a closer look

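Each of the 17 probe sets was checked in both groups for 1 mouse far from the other 4 of its group, by Dixon's ratio of gap to range; chance flags about 1 in 20 such checks, 34 were made, and 8 were found. For Slc40a1, stressed mouse 2 was high at 9.85 on the log2 scale with probe set 1417061_at, where the other 4 reached 9.18. Control mouse 1 was high for Slc40a1 with both probe sets, at 10.98 against at most 10.18, and at 9.04 against at most 8.43. Control mouse 1 was also high for Fth1 with both, at 13.64 against at most 13.04, and at 13.52 against at most 12.90. Stressed mouse 1, which had the highest 3' to 5' ratio, was low for Fth1 with probe set 1427021_s_at, at 12.62 against at least 12.96. Stressed mouse 1 was high for Slc11a2 with probe set 1417584_at, at 6.52 against at most 6.38. Stressed mouse 2 was low for Cybrd1 with probe set 1460604_at, at 5.59 against at least 5.86.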

How the results depend on the processing

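The count of genes called with 10 arrays, 0, became 2 with the mean of all probe sets of a gene, 41 with array weights, and 0 to 109 on leaving out 1 mouse (109 without control mouse 1, 2 without stressed mouse 2); at an unadjusted p under 0.05 limma gave 1069. The count of 109 without control mouse 1 became 169 with a robust intensity trend, and 6 (without stressed mouse 4) to 154 (without stressed mouse 2) on leaving out a further mouse. Members called were 0 to 2 on leaving out 1 mouse from either fit. Without control mouse 1 they became 1 under a filter at 60 percent, which kept 6 members and not Ltf, and 1 with the replicate block. Whether the replicate numbers pair the mice was not settled. Of 5 same-numbered pairs, 2 correlated above 0.1 in their deviations, and 2 of 5 stressed mice correlated best with their own number. With 5 pairs, and with control mouse 1 among them, this check cannot decide it. The block leaves stressed mouse 1 without a partner, and Ltf then differed by -0.60 (limma adjusted p = 0.0797). Signs of uncalled members turned in these settings, and the cause was not tested. Heph, at 0.12 with 10 arrays, lay between -0.019 (without control mouse 1) and 0.21 on leaving out 1 mouse. Without control mouse 1, Heph became 0.047 with array weights and 0.074 with the replicate block, and lay between -0.078 and 0.074 on leaving out a further mouse. Fth1, at -0.05 there, became 0.0056 with the mean of probe sets, 0.00078 with array weights and 0.024 with the block, and lay between -0.086 and 0.024 on leaving out a further mouse. By probe set, Slc11a2 turned to 0.18 with 10 arrays and 0.13 without control mouse 1 (1417584_at), and Cybrd1 to -0.039 and -0.12 (1425040_at). Tfrc, also without control mouse 1, turned to -0.018 (1422967_a_at) and Fth1 to 0.060 (1448771_a_at). Slc40a1 and Ltf were lower in stressed mice in every setting that tested them, by 0.82 to 1.23 and 0.28 to 0.71 on the log2 scale. The settings share the same mice and are not independent, and the stressed mean of Ltf lies under the filter floor. The fits by probe set were added after the data had been seen, and without control mouse 1 neither gene was called in them (limma adjusted p = 0.0570 and 0.0537).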
